A study of Homo sapiens with 9 samples.

Results

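The vesicle release and uptake machinery examined here is a set of 44 genes out of 60675 genes in the table. They were chosen by name from textbook roles in making, releasing and taking up small extracellular vesicles (sEV). The choice was made with earlier results of these data known. All 44 were found, and 43 passed the filter on low values of at least 1 TPM (a relative transcript abundance, corrected for length and scaled to the same total in every library) in at least 3 of the 9 libraries. SMPD3 did not pass.

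The cells were the recipient line MDA-MB-231, an established human triple-negative breast cancer line labelled wild type, and RNA-seq was run on their total RNA. The TIS sEV group (3 libraries) had been given sEV from donor MDA-MB-231 cells exposed to nocodazole, a microtubule poison, at 100 ng/ml; the study calls these donors therapy-induced senescent. The Cont sEV group (3 libraries) had been given sEV from donors exposed to the solvent DMSO, and the No sEV group (3 libraries) no vesicles. Donors of both kinds were treated for 72 h and then kept for 72 h in exo-free medium, from which sEV were isolated by differential centrifugation. Recipients of all 3 groups were kept for 72 h in 5% exo-free medium. Donors and recipients are thus the same cell line, the donor state was produced by 1 drug, and the RNA is that of whole cultures, so a level is a mean over cells and a change in some cells cannot be told apart from a smaller change in all.

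Small extracellular vesicles of the exosome type form when the membrane of a late endosome buds inwards, a step driven by the ESCRT complexes or by the lipid ceramide, and are released when RAB GTPases bring that endosome to the cell surface and SNARE proteins fuse it there. Tetraspanins are membrane proteins that are sorted into these vesicles and serve as their usual surface markers. Recipient cells bind vesicles through surface heparan sulfate proteoglycans, among them the syndecans, and take them up by clathrin-dependent, caveolar and other endocytic routes. The question put to these genes was whether their transcripts differ in recipient cells after contact with vesicles of either kind.

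The libraries were much alike. Values above 0 were found for 21277 to 21962 genes per library, and Pearson's r over genes, which are not independent replicates, was 0.992 to 0.994 both within and between groups. Of the markers chosen for the line, VIM was at 2249 TPM, MSN at 691 TPM, CD44 at 469 TPM and EGFR at 111 TPM. These are means over all libraries. CAV1, also chosen, is given below, and AXL and KISS1 are not given. Of the luminal markers, ESR1, PGR, CDH1 and FOXA1 were at 0.328 TPM or less, whereas ERBB2 was at 28.1 TPM and KRT8 at 335 TPM. The luminal marker GATA3 is not given. Of 7 markers of other cell types, PTPRC, CD3E, ALB and MYH7 were at 0.511 TPM or less, PECAM1 was at 1.78 TPM, COL1A1 at 8.08 TPM and CD68 at 153 TPM. The labels do not say whether the replicates were separate cultures, so the p-values measure the spread between these libraries, which may be technical.

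MDA-MB-231 cells expressed nearly the whole machinery, and at high levels. Averaged over the 9 libraries, 22 members were at 100 TPM or more, 18 between 10 and 100 TPM, and 3 (RAB27B, VPS36 and CHMP4C) between 1 and 10 TPM. SMPD3 was below 1 TPM. The sum over all members lay between 5582 and 5693 TPM with TIS sEV, between 5515 and 5590 TPM with Cont sEV, and between 5505 and 5605 TPM with No sEV. No member passed the test in any comparison of the 3 groups.

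**Figure D1:**
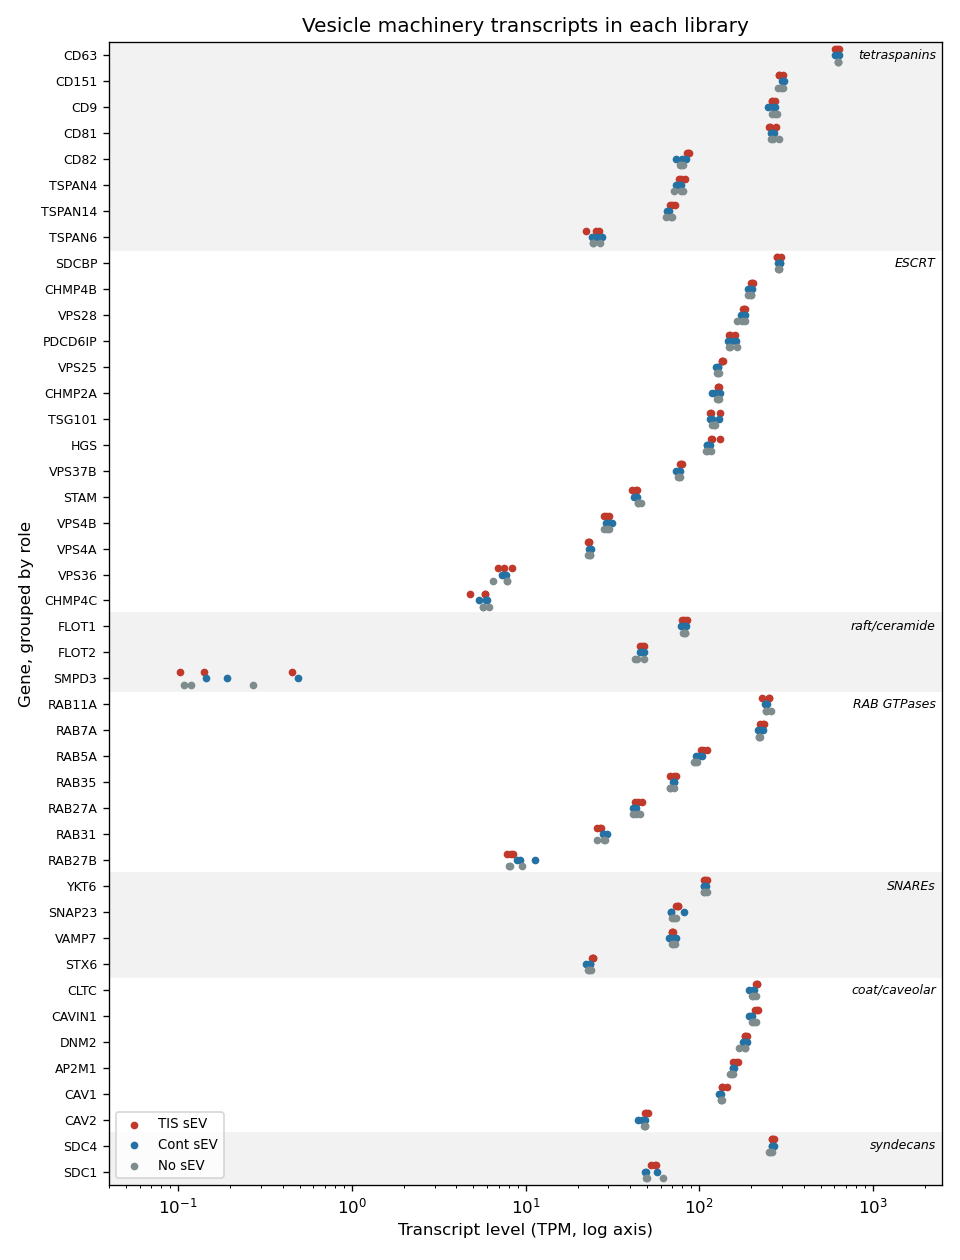
Transcript level of each of the 44 genes in each library, in TPM on a log axis, with genes grouped by role and points coloured by group (TIS sEV, Cont sEV, No sEV). The points of a gene lie close together, with a ratio of highest to lowest library of 1.04 to 1.45 for the 43 tested genes, while levels span from CD63, with a group mean of at least 624 TPM, to SMPD3 below 1 TPM.

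Among the 8 tetraspanins, CD63, a late endosomal member and common vesicle marker, was the most abundant gene of the machinery, above 98.5% of all tested genes. It had 625, 606 and 641 TPM with TIS sEV, 606.5, 639.9 and 630.4 TPM with Cont sEV, and 632, 632 and 629.9 TPM with No sEV. The 3 groups overlapped. CD9, a tetraspanin of the plasma membrane, had 264, 261 and 272 TPM with TIS sEV, 266, 272 and 249 TPM with Cont sEV, and 274, 281 and 262 TPM with No sEV. CD81, another tetraspanin of the plasma membrane, had 257, 252 and 278 TPM with TIS sEV, 266, 271 and 258 TPM with Cont sEV, and 267, 258 and 287 TPM with No sEV. These ranges overlapped as well. CD151, a partner of laminin-binding integrins, averaged 293 ± 7.96, 304 ± 5.23 and 295 ± 9.63 TPM with TIS, Cont and No sEV (SD, n = 3 each). CD82, known as a suppressor of metastasis, TSPAN4, known from migrasomes, and TSPAN14, a regulator of the protease ADAM10, had group means between 66.4 and 86.2 TPM, and TSPAN6 means of 24.8 to 25.8 TPM.

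The 14 ESCRT genes and their partners span the 4 complexes and their recycling enzyme. SDCBP (syntenin), the adaptor that links syndecans to ALIX, was the highest at 295, 281 and 282 TPM with TIS sEV, 294, 285 and 290.0 TPM with Cont sEV, and 285, 288 and 289.8 TPM with No sEV. PDCD6IP, which encodes ALIX itself, had 150.2, 159.8 and 148 TPM with TIS sEV, 152, 147 and 163 TPM with Cont sEV, and 151, 148 and 166 TPM with No sEV. TSG101, the ESCRT-I subunit that binds ubiquitinated cargo, had 116, 116 and 132 TPM with TIS sEV, 116, 119 and 129.6 TPM with Cont sEV, and 119, 121 and 123 TPM with No sEV. All 3 overlapped between the groups.

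The ESCRT-III subunit pair CHMP4B and CHMP4C differed widely in level in every library: CHMP4B, which polymerises at the bud neck, made up 96.98% to 97.7% of their joint TPM. CHMP4C, known from the abscission checkpoint of cell division, had 5.84, 5.81 and 4.804 TPM with TIS sEV, 5.998, 5.89 and 5.43 TPM with Cont sEV, and 5.71, 5.68 and 6.19 TPM with No sEV, with overlap. VPS4A and VPS4B, the ATPases that take ESCRT-III apart, were near parity, VPS4A taking 42.88% to 45.28% of the pair, although 38.3% of the 31-base words of VPS4A transcripts also occur in transcripts of other genes. VPS36, an ESCRT-II subunit, was at 7.36 to 7.61 TPM in group means, far below its partner VPS25 in the same complex at 127 to 135 TPM. The remaining ESCRT members had group means of 175 to 182 TPM (VPS28) and 75.9 to 78.5 TPM (VPS37B), both of ESCRT-I, and 125 to 129 TPM (CHMP2A, of ESCRT-III). VPS37B shares 36.98% of its 31-base words with transcripts of other genes.

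Of the raft and ceramide genes, the flotillins FLOT1 and FLOT2, scaffold proteins of membrane rafts, were at 81.3 to 82.4 and 44.8 to 46.9 TPM in group means. SMPD3, which encodes the neutral sphingomyelinase that makes ceramide for ESCRT-independent budding, was listed at 0.453, 0.103 and 0.140 TPM with TIS sEV, 0.191, 0.145 and 0.491 TPM with Cont sEV, and 0.108, 0.119 and 0.27 TPM with No sEV. At these levels the groups overlapped and no test was made.

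Of the 7 RAB GTPases, RAB11A of recycling endosomes (242 to 248 TPM in group means) and RAB7A of late endosomes (222 to 231 TPM) were the highest. RAB27A and RAB27B, which dock the vesicle-bearing endosomes at the plasma membrane, were at 42.4 to 44.7 and 8.18 to 9.89 TPM. RAB31, known from ESCRT-independent vesicle formation driven by activated EGFR, had 27.0, 27.3 and 25.9 TPM with TIS sEV, 29.5, 28.4 and 28.0 TPM with Cont sEV, and 25.9, 28.7 and 28.3 TPM with No sEV. Its 3 TIS sEV values lay below the 3 Cont sEV values, while the No sEV values overlapped both (log2 fold change of TIS sEV against Cont sEV -0.09, 95% confidence interval -0.20 to 0.01, limma adjusted p = 0.571). RAB35, a RAB of the plasma membrane and fast recycling, was at 68.9 to 71.2 TPM in group means.

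VAMP7, an R-SNARE of late endosomes and lysosomes, needed a joined value. It lies in a pseudoautosomal region (chrX:155881293-155943769 in GENCODE 29, GRCh38), and the deposited table lists it on 2 rows, as an X and a Y copy. The start regions of both copies are printed, 250 bases before to 50 bases after the start on the + strand in RefSeq's GRCh38.p14. In this reference 300 of 300 bases were identical, at chrX:155881095-155881394 and chrY:57067615-57067914. The identity is one of the reference and not measured in these cells. Bases before the start are not part of the transcript.
VAMP7 X copy: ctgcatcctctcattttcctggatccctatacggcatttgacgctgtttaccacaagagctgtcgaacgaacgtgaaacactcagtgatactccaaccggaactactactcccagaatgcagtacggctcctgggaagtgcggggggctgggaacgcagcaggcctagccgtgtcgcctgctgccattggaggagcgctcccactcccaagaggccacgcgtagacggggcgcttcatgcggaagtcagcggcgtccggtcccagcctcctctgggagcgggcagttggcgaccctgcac
VAMP7 Y copy: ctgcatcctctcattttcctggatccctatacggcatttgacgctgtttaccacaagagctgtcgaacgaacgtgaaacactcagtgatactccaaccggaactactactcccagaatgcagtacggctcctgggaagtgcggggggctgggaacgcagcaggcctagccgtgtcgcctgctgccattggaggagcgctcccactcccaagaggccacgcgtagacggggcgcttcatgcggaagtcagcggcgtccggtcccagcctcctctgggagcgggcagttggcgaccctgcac

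The transcripts of the copies were also alike: 100% of the 2783 31-base words of VAMP7 transcripts on X occur in those of the Y copy. Such words cannot assign a read to a copy, so neither row taken alone measures its copy. Opposite values of the rows therefore do not show that either copy changed. Taken alone, the X row had 30.8, 29.7 and 30.8 TPM with TIS sEV, 43.7, 38.6 and 34.3 TPM with Cont sEV, and 39.1, 40.9 and 29.3 TPM with No sEV. All 3 TIS sEV values lay below the Cont sEV values, and the log2 fold change was -0.34 (SE 0.117, limma unadjusted p = 0.0169, adjusted p = 0.378). The Y row moved the other way, with 39.9, 40.5 and 38.6 TPM with TIS sEV against 30.02, 28.7 and 34.4 TPM with Cont sEV (log2 fold change 0.35, SE 0.125, unadjusted p = 0.0198, adjusted p = 0.386). With both rows summed, VAMP7 had 70.7, 70.1 and 69.4 TPM with TIS sEV, 73.7, 67.3 and 68.7 TPM with Cont sEV, and 70.6, 70.0 and 72.8 TPM with No sEV. The summed groups overlapped, and the log2 fold change of TIS sEV against Cont sEV was 0.00 (SE 0.0383, 95% confidence interval -0.08 to 0.09, adjusted p = 0.985). All VAMP7 values below are of the sum. The other SNAREs were YKT6, a lipid-anchored R-SNARE, at 108 to 109 TPM in group means, SNAP23 of the plasma membrane at 71.8 to 74.7 TPM, and STX6 of the trans-Golgi and endosomes at 23.1 to 24.3 TPM. SNAP23 shares 26.5% of its 31-base words with transcripts of other genes.

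**Figure D2:**
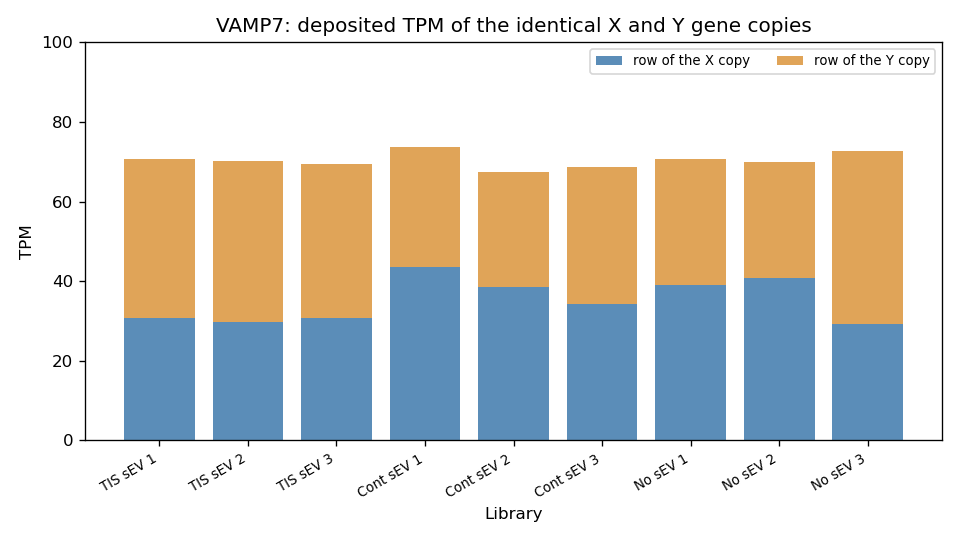
Deposited TPM of VAMP7 in each library as stacked bars, with the row of the X copy below and the row of the Y copy above. The division between the rows shifts from library to library, and the summed height stays between 67.3 and 73.7 TPM.

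Among the 6 endocytic coat and caveolar genes, CLTC, the clathrin heavy chain, and CAVIN1, the coat protein without which caveolae do not form, were the highest. CAV1, the main caveolin, had 134, 135 and 144 TPM with TIS sEV, 133, 130.0 and 131 TPM with Cont sEV, and 133, 135 and 134 TPM with No sEV. Its partner CAV2 had 48.5, 49.6 and 50.8 TPM with TIS sEV, 47.0, 44.5 and 48.6 TPM with Cont sEV, and 48.6, 48.2 and 48.6 TPM with No sEV. CAV1 lay higher in every TIS sEV than in every Cont sEV library, by little, and CAV2 overlapped. DNM2, the GTPase that pinches vesicles off, was at 179 to 185 TPM in group means, and AP2M1, the cargo-binding subunit of the clathrin adaptor AP-2, at 154 to 162 TPM. The TPM sum of the 6 genes was 959.8, 965 and 966 with TIS sEV, 934, 896 and 927 with Cont sEV, and 932, 921 and 934 with No sEV.

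The syndecans are the heparan sulfate carriers of the set. SDC4 had 263, 262 and 269 TPM with TIS sEV, 268, 262 and 262 TPM with Cont sEV, and 252, 255.3 and 264 TPM with No sEV. SDC1 was lower at 52.5, 55.6 and 56.3 TPM with TIS sEV, 56.8, 49.5 and 48.8 TPM with Cont sEV, and 61.6, 49.2 and 50.3 TPM with No sEV. Both overlapped between the groups, and SDC1 made up 15.71% to 19.63% of their joint TPM.

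The members varied little between libraries. The ratio of the highest to the lowest library had a median of 1.12 over the 43 tested members, and 37 of them (86%) were under 1.2, against 56.8% of the 9995 tested genes within the members' range of mean TPM, whose median was 1.18. The members are not spread evenly over that range, so this is a description and not a property shown to be particular to them. The least even were RAB27B (1.45), VPS36 (1.296), CHMP4C (1.29) and SDC1 (1.26).

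The first comparison, TIS sEV against Cont sEV, asks whether vesicles of nocodazole-treated donors leave other transcript levels than those of solvent-treated donors. None of the 43 tested members passed limma's moderated test once p-values were adjusted (Benjamini-Hochberg) over all 13866 tested genes, of which 13 passed (0.0938%). The smallest adjusted p of a member was 0.23, and at an unadjusted p under 0.05 there were 5 members higher and 1 lower with TIS sEV (14% of members, against 10% of all genes, of which 7.08% were higher and 2.92% lower). Fold changes on the log2(TPM + 1) scale ran from -0.24 to 0.12, with 28 of 43 positive (65.1%, against 59.7% of all genes) and a median of 0.02 for the members and for all genes. With median-of-ratios rescaling 19 of 43 were positive (median -0.00244, beside 0.000647 for all genes), and with quantile normalization 22 of 43 (median 0.00108), so the balance of signs depends on the scaling. In 11 members, 9 higher and 2 lower, the 3 TIS sEV libraries did not overlap the 3 Cont sEV libraries (25.6%, against 15.4% of all genes, 10.9% higher and 4.47% lower).

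CAVIN1 (chr17:42402452-42423517, - strand, GENCODE 29, GRCh38) had the smallest p. It had 216, 209.7 and 218 TPM with TIS sEV, 201, 194 and 199.6 TPM with Cont sEV, and 208, 202 and 212 TPM with No sEV. Every TIS sEV value was above every Cont sEV value, while the No sEV values lay above the Cont sEV values and overlapped those with TIS sEV. The log2 fold change of TIS sEV against Cont sEV was 0.11 (95% confidence interval 0.05 to 0.18, adjusted p = 0.23).

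VPS25 (chr17:42773436-42779599, + strand), the ESCRT-II subunit that binds ESCRT-III, had 134.5, 134.9 and 136 TPM with TIS sEV, 129, 124 and 128 TPM with Cont sEV, and 129.8, 127 and 129 TPM with No sEV. The TIS sEV values stood above all 6 others, by less than 10 TPM on average (log2 fold change against Cont sEV 0.09, interval 0.03 to 0.15, adjusted p = 0.299). CLTC (chr17:59619689-59696956, + strand) had 214, 216 and 214 TPM with TIS sEV, 205, 193 and 206 TPM with Cont sEV, and 200.4, 213 and 204 TPM with No sEV. Here too the TIS sEV values lay above all others, the nearest No sEV value by about 1 TPM (0.09 against Cont sEV, interval 0.02 to 0.16, adjusted p = 0.385). CD82 (chr11:44564427-44620363, + strand) had 85.4, 87.0 and 86.3 TPM with TIS sEV, 84.3, 73.4 and 79.8 TPM with Cont sEV, and 80.5, 77.3 and 78.2 TPM with No sEV. Its TIS sEV values were above all 6 others and closer to each other than those of the other groups (0.12 against Cont sEV, interval 0.02 to 0.23, adjusted p = 0.413).

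RAB27B (chr18:54717860-54895516, + strand) was the 1 member lower at an unadjusted p under 0.05, and the least abundant RAB gene of the set. It had 8.24, 8.46 and 7.84 TPM with TIS sEV, 8.98, 9.31 and 11.4 TPM with Cont sEV, and 8.09, 8.03 and 9.54 TPM with No sEV. The 3 TIS sEV values lay below the 3 Cont sEV values and overlapped the No sEV values (log2 fold change against Cont sEV -0.24, interval -0.45 to -0.03, adjusted p = 0.443). Its highest value came from Cont sEV replicate 3, without which the log2 fold change was -0.14 (limma adjusted p = 0.729). For all 43 members the 95% interval stayed within 0.5 on the log2 scale to either side of 0, and for 40 within 0.25, which bounds the size of a difference and does not show equal levels.

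**Figure D3:**
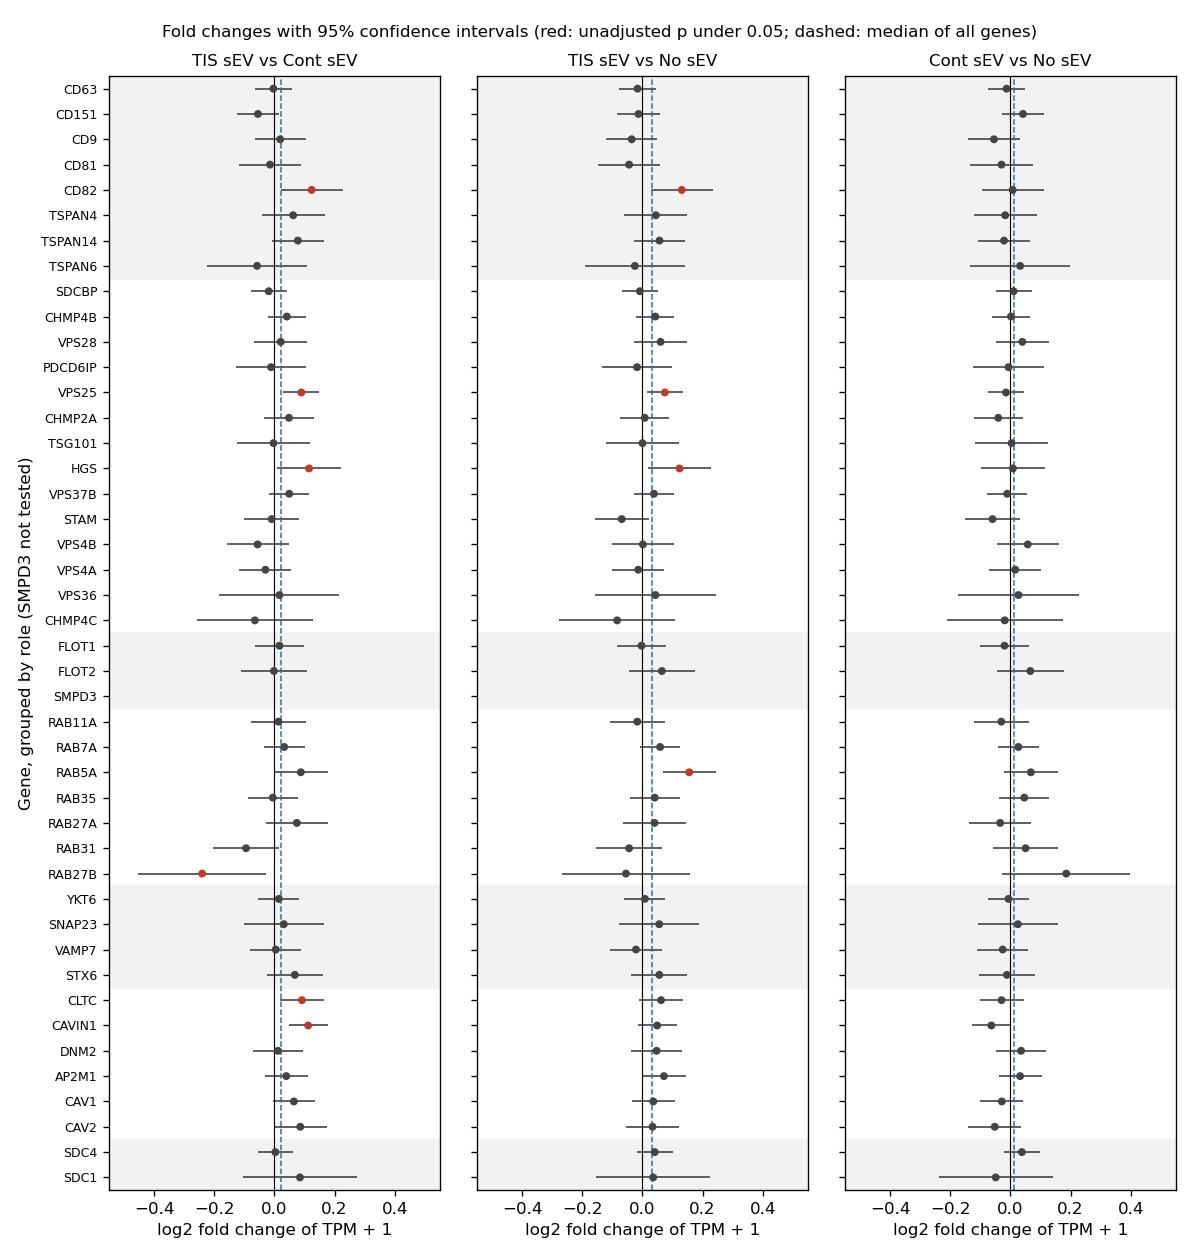
Log2 fold changes of TPM + 1 with 95% confidence intervals for the 43 tested genes in each comparison, grouped by role (shaded bands), with red points where the unadjusted p was under 0.05 and a dashed line at the median of all genes. None passed after adjustment; red points stand at 6 genes in TIS sEV against Cont sEV, 4 in TIS sEV against No sEV and 0 in Cont sEV against No sEV.

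By role, the 6 endocytic coat and caveolar genes were all positive with TIS sEV against Cont sEV (median 0.08) and against No sEV (median 0.05), although under median-of-ratios rescaling 5 and 6 were, under quantile normalization 5 and 5, and without Cont sEV replicate 2 5 against Cont sEV. Both syndecans were also positive in these comparisons (medians 0.04 and 0.04), but 1 of 2 against Cont sEV under either rescaling. The comparisons share the TIS sEV libraries, so the same sign in both is not independent. For the coat and caveolar genes, the median of Cont sEV against No sEV had the other sign (-0.03, with 2 of 6 positive). None of the 6 passed, 2 (CAVIN1 and CLTC) had an unadjusted p under 0.05 against Cont sEV, and none did against No sEV. Over all tested genes, 10% had an unadjusted limma p under 0.05 against Cont sEV and 7.97% against No sEV. Positive fold changes made up 59.7% and 66.7% of all tested genes in these comparisons. Of the SNAREs 4 of 4 were positive against Cont sEV (median 0.02, that of all genes) and 3 of 4 against No sEV, but 2 of 4 in both under median-of-ratios rescaling and quantile normalization, and 2 of 4 against Cont sEV without Cont sEV replicate 2. Tetraspanins were positive in 4 of 8, ESCRT genes in 7 of 14 and RAB GTPases in 4 of 7 against Cont sEV.

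The second comparison, TIS sEV against No sEV, asks what vesicles of treated donors leave compared with none. No member passed, with a smallest adjusted p of 0.421; over all genes 1 passed (0.00721%). At an unadjusted p under 0.05 there were 4 members higher and 0 lower (9.3%, against 7.97% of all genes, 6.35% higher and 1.62% lower). Of the 43, 28 were positive (65.1%, against 66.7% of all genes), with a median of 0.04 beside 0.03 for all genes and a range of -0.08 to 0.16. With median-of-ratios rescaling 24 of 43 were positive and with quantile normalization 23 of 43, and without No sEV replicate 2 the median was 0.01. In 11 members, 10 higher and 1 lower, the groups did not overlap (25.6%, against 14.1% of all genes, 11.3% higher and 2.77% lower).

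RAB5A (chr3:19947079-19985175, + strand), the RAB of early endosomes and thus of incoming cargo, had the largest fold change here. It had 105, 110.5 and 102 TPM with TIS sEV, 100.0, 103 and 95.4 TPM with Cont sEV, and 93.7, 96.7 and 94.4 TPM with No sEV. TIS sEV and No sEV did not overlap, and Cont sEV overlapped both (log2 fold change of TIS sEV against No sEV 0.16, interval 0.07 to 0.24, adjusted p = 0.421). HGS (chr17:81683326-81703138, + strand), the ESCRT-0 subunit that sorts ubiquitinated receptors, had 118, 131.8 and 117 TPM with TIS sEV, 111, 112 and 116 TPM with Cont sEV, and 111, 109 and 116 TPM with No sEV. Its mean with TIS sEV rests partly on the library at 131.8 TPM, although all 3 lay above the other 6 (0.12 against No sEV, interval 0.02 to 0.23, adjusted p = 0.586; 0.12 against Cont sEV, adjusted p = 0.462). Without that library the log2 fold change against No sEV was 0.07 (limma adjusted p = 0.795). AP2M1 had 162, 167 and 156 TPM with TIS sEV, 159, 156 and 157 TPM with Cont sEV, and 158, 154 and 150.1 TPM with No sEV. Its TIS sEV values overlapped both other groups, with 0.07 against No sEV (adjusted p = 0.626). CD82 and VPS25 were the other members at an unadjusted p under 0.05, at 0.13 (adjusted p = 0.553) and 0.07 (adjusted p = 0.571).

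HGS, RAB5A, CD82, RAB27B, CLTC and STAM each have an exon that overlaps a gene on the opposite strand. They are among 21 of the 44 members that do, and the strand setting of the counting is unknown. Of the 31-base words, transcripts of other genes share 23.5% for HGS, 10.4% for CD82, 5.0% for RAB5A and 3.75% for RAB27B. The shares were 2.06% for CLTC and 0.49% for STAM. How far this moves their values was not tested.

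**Figure D4:**
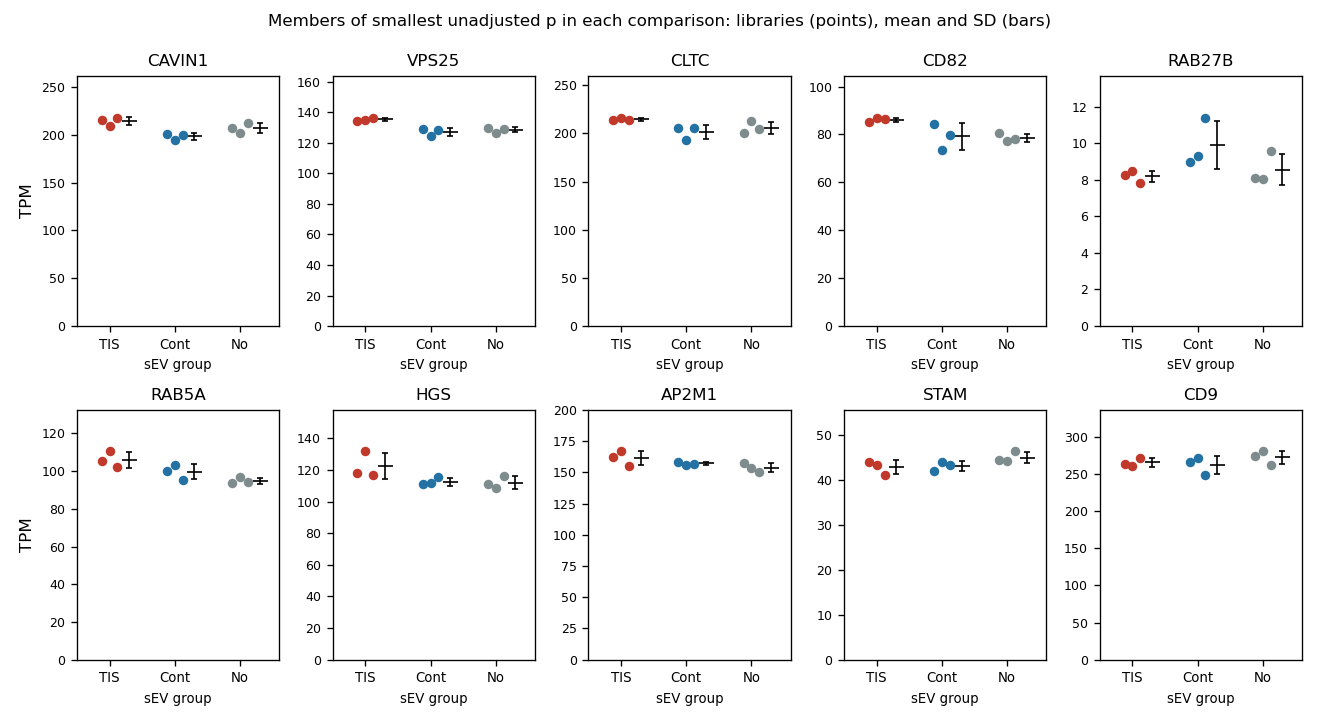
TPM per library (points) with mean and SD (bars) for the 10 genes that were among the 5 of smallest unadjusted p in any comparison, by sEV group, with each axis starting at 0. For CAVIN1, VPS25, CLTC, CD82 and HGS the TIS sEV points lie above all Cont sEV points, and for RAB27B below them.

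The third comparison, Cont sEV against No sEV, asks what vesicles of solvent-treated cells of the same line leave. No member passed (0% of all genes passed in limma's test), and 0 members had an unadjusted p under 0.05, against 6.03% of all genes (836 genes, 3.53% higher and 2.5% lower). The median fold change was -0.01 beside 0.01 for all genes, with 21 of 43 positive (48.8%, against 56.5%). The members' median turned positive without Cont sEV replicate 2 (0.01, 29 of 43 positive), without No sEV replicate 3 (0.01, 26 of 43) and with quantile normalization (0.000434, 22 of 43), whereas with median-of-ratios rescaling 16 of 43 were positive (median -0.02). In this comparison 2 members, both lower, had groups that did not overlap (4.65%, against 11.2% of all genes, 6.73% higher and 4.48% lower). The smallest p belonged to CAVIN1 (log2 fold change -0.06, interval -0.13 to 0.00, adjusted p = 0.803), followed by RAB27B (0.19, interval -0.03 to 0.40, adjusted p = 0.82) and RAB5A (0.07, adjusted p = 0.861). CAVIN1 and RAB27B have the opposite sign here from TIS sEV against Cont sEV, and both comparisons share the Cont sEV libraries. STAM, the partner of HGS in ESCRT-0, had 44.0, 43.4 and 41.1 TPM with TIS sEV, 42.0, 44.0 and 43.3 TPM with Cont sEV, and 44.3, 44.1 and 46.4 TPM with No sEV, so that Cont sEV lay below No sEV without overlap, by less than 1 TPM at the closest (-0.06, adjusted p = 0.888). CD9 overlapped (-0.05, adjusted p = 0.89). Across the 3 groups at once, limma's F test passed 0 members and 3 of all genes (0.0216%), and at an unadjusted p under 0.05 there were 5 members beside 8.75% of all genes.

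RAB27A and RAB27B both have a part in vesicle release but differ in level, and their balance was followed within each library. RAB27A had 47.0, 44.4 and 42.9 TPM with TIS sEV, 42.7, 41.5 and 43.1 TPM with Cont sEV, and 45.6, 41.5 and 43.4 TPM with No sEV. It made up 85.1%, 84.0% and 84.5% of the pair with TIS sEV, 82.6%, 81.7% and 79.1% with Cont sEV, and 84.9%, 83.8% and 82.0% with No sEV. The share was higher in every TIS sEV than in every Cont sEV library (84.5% ± 0.54 against 81.1% ± 1.83, SD, n = 3 each; two-sided exact permutation p = 0.1, the smallest that 3 against 3 allows), and the No sEV libraries overlapped both (exact p = 0.4 against TIS sEV and 0.2 of Cont sEV against No sEV). The RAB27A share is computed from the values of both genes already given, so its separation is not independent of that of RAB27B. The 5 other pairs (VPS4A with VPS4B, CAV1 with CAV2, FLOT1 with FLOT2, SDC1 with SDC4, CHMP4B with CHMP4C) gave exact p-values from 0.3 to 1 over the 3 comparisons.

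A start region of each paralog is printed, the start nearest to the gene's start in GENCODE 29, because these related genes differ in level. Both run from 250 bases before to 50 bases after the start in RefSeq's GRCh38.p14, RAB27A at chr15:55319074-55319373 on the - strand and RAB27B at chr18:54717607-54717906 on the + strand. Capitals mark the GC box, searched as GGGCGG on both strands and found here as CCGCCC.
RAB27A: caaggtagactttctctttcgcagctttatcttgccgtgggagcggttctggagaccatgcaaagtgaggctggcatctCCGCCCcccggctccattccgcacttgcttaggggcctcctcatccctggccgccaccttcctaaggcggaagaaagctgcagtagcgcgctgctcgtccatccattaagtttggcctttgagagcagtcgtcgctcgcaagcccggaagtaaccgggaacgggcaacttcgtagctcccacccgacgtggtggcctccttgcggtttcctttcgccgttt
RAB27B: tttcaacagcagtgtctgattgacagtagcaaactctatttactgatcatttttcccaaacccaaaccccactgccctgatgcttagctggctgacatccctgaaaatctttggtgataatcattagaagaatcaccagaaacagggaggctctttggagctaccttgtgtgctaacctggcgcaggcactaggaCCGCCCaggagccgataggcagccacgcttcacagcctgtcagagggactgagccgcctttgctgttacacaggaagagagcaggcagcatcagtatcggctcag

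The printed RAB27A region holds 23 CpG at 59.3% GC and the printed RAB27B region 6 CpG at 51.0% GC, with 1 GC box each. RefSeq lists 5 starts for RAB27A and 2 for RAB27B, and the difference depends on the start: the other 4 RAB27A regions hold 1 to 6 CpG at 37.0% to 45.3% GC, and the other RAB27B region 17 CpG at 59.0% GC. Which start these cells use was not measured. Over the set, 37 of the 44 members matched 65 such regions in RefSeq, with several starts for some genes; CD81, CAVIN1, SDCBP, VPS28, CHMP4C, SMPD3 and CD151 are not among them. Their median GC content was 64.3%, against 58.7% of all 35116 regions, and their median CpG number 24, against 14. The GC box was found in 73.8% of the members' regions and 45.0% of all regions, and TATAAA in 3.08% and 11.5%. The E-box CACGTG was found in 13.8% and 7.26%, CCAAT in 18.5% and 34.6%, and the AP-1 motif TGANTCA in 7.69% and 7.71%. All regions were not limited to genes expressed in these cells. Genes with several starts, and the identical VAMP7 copies, count more than once. These differences are thus not shown to be particular to the members. All motifs were searched on both strands, none is contained in another, and a match is a run of letters and no measured binding.

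The other genes of the same pathways were described from 7 lists of 11 to 27 tested genes, and 0 genes of any list passed in any comparison. Of all tested genes, 59.7% were positive in TIS sEV against Cont sEV and 66.7% in TIS sEV against No sEV. In Cont sEV against No sEV the share was 56.5%. Signs in the lists were not followed under other scaling, on which the members' balance of signs depended. The list closest to the coat genes, of other clathrin, caveolar and endocytic genes, had 20 of 27 positive fold changes with TIS sEV against Cont sEV (median 0.04, beside 0.02 for all genes) and 25 of 27 against No sEV (median 0.06, beside 0.03). EPN1 (epsin), which bends the membrane under clathrin, had the smallest p in it, at 106, 107 and 115 TPM with TIS sEV, 96.6, 92.1 and 84.5 TPM with Cont sEV, and 101, 94.5 and 93.4 TPM with No sEV. Its TIS sEV values stood above the other 6 (log2 fold change 0.26 against Cont sEV, adjusted p = 0.155; 0.18 against No sEV, adjusted p = 0.5). EHD2, an ATPase at the neck of caveolae, had 69.3 ± 2.04 TPM with TIS sEV, 63.5 ± 2.43 TPM with Cont sEV and 65.3 ± 1.62 TPM with No sEV (SD, n = 3 each; 0.12 against Cont sEV, adjusted p = 0.336).

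Among heparan sulfate carriers and enzymes, 12 of 17 were positive in both TIS sEV comparisons, with medians of 0.03 and 0.07. HS3ST1, a heparan sulfate sulfotransferase, had the largest fold changes of any gene in the 7 lists, on low levels: 3.90, 6.07 and 5.66 TPM with TIS sEV, 3.91, 2.24 and 3.07 TPM with Cont sEV, and 2.22, 2.08 and 3.64 TPM with No sEV. The TIS sEV and Cont sEV values overlapped and those of TIS sEV and No sEV did not (0.61, adjusted p = 0.364, and 0.78, adjusted p = 0.451). EXT1, a polymerase of the heparan sulfate chain, had 312 ± 4.29 TPM with TIS sEV, 292 ± 13.8 TPM with Cont sEV and 295 ± 4.43 TPM with No sEV (SD, n = 3 each; 0.10 against Cont sEV, adjusted p = 0.381).

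Of other SNARE and fusion genes, 16 of 21 were positive in both TIS sEV comparisons (median 0.05 in each), while other ESCRT genes had 7 of 21 positive against Cont sEV (median -0.01) and 16 of 21 against No sEV (median 0.04). SNAP29, which fuses autophagosomes with lysosomes, had 31.03 ± 1.63 TPM with TIS sEV, 27.8 ± 0.776 TPM with Cont sEV and 26.2 ± 3.02 TPM with No sEV (SD, n = 3 each; 0.24 against No sEV, adjusted p = 0.519). STX5, a Golgi syntaxin, averaged 54.6 ± 0.419 TPM with TIS sEV, 58.1 ± 0.81 TPM with Cont sEV and 54.2 ± 1.12 TPM with No sEV (-0.09 against Cont sEV, limma adjusted p = 0.395). SNF8, the third kind of ESCRT-II subunit beside VPS25 and VPS36, had 166 ± 2.55 TPM with TIS sEV, 159 ± 6.15 TPM with Cont sEV and 152 ± 2.64 TPM with No sEV (0.13 against No sEV, limma adjusted p = 0.402). Other tetraspanins had 8 of 11 and 5 of 11 positive in the TIS sEV comparisons, other RAB and RAB27 effector genes 11 and 12 of 20, and lysosome and late endosome genes 8 and 19 of 23. In Cont sEV against No sEV, lysosome and late endosome genes were positive in 19 of 23 (median 0.03, beside 0.01 for all genes) and other ESCRT genes in 15 of 21 (median 0.03). The other lists had 3 of 11 (other tetraspanins), 7 of 20 (RAB and effectors), 10 of 21 (SNARE and fusion), 17 of 27 (clathrin, caveolar and endocytic) and 9 of 17 (heparan sulfate) positive there. Both comparisons against No sEV share the No sEV libraries, and both TIS sEV comparisons share the TIS sEV libraries. RAB10 of the RAB list had 134 ± 1.23 TPM with TIS sEV, 125 ± 2.59 TPM with Cont sEV and 132 ± 5.6 TPM with No sEV (SD, n = 3 each; 0.10 against Cont sEV, limma adjusted p = 0.353).

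**Figure D5:**
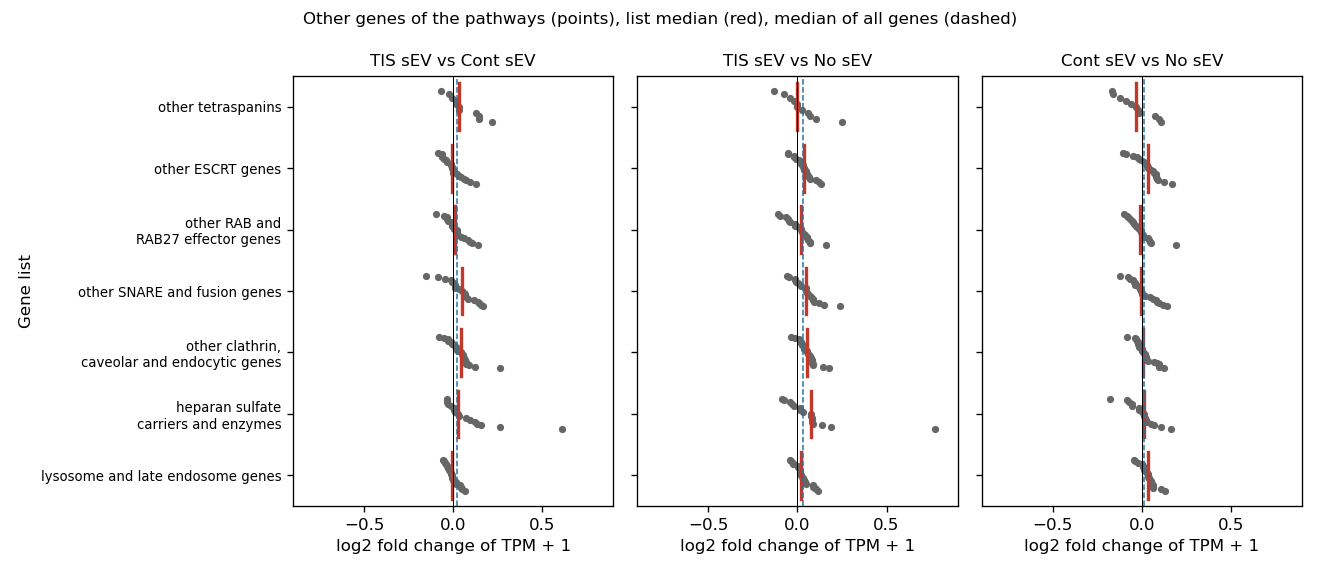
Log2 fold changes of TPM + 1 of the other genes of 7 pathway lists (points, 1 per gene) in each comparison, with each list's median as a red bar and the median of all genes as a dashed line. List medians lie between -0.03 and 0.07, close to those of all genes, and HS3ST1 is the point farthest to the right in both TIS sEV panels.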

How the data were processed

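Gene-level TPM of 9 libraries were used as deposited by the authors; the submitters' processing notes name Salmon 1.4.0, Trim Galore 0.6.6, FastQC 0.11.9 and DESeq2 1.28.0 and the genome GRCh38.p13. The annotation release and the strand setting are unknown here. TPM keep no read depth, so depth is unknown, no counts were recovered and no interval of counting error is given. Groups come from the labels. X and Y rows of 44 pseudoautosomal genes were summed, a choice made after seeing the data, which left 60675 genes, of which 13866 with at least 1 TPM in at least 3 libraries were tested. GENCODE 29 supplied coordinates, transcripts and the symbols of 99.58% of the Ensembl IDs.

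limma 3.58.1 in R 4.3.3 fitted log2(TPM + 1) of all 9 libraries with a variance trend. Adding 1 to the TPM understates fold changes of low genes. Moderated tests were two-sided, adjusted by Benjamini-Hochberg over all tested genes, with a threshold of 0.05. The steps were tested on simulated data, but how often changes as small as those of the members would be found is not given. Shares within gene pairs were compared by exact permutation tests. The members and gene lists were chosen with earlier results of these data known, so lists are described by counts and medians and not tested. Values in every library are given for the 5 members of smallest unadjusted p per comparison and a set of 17 members given by name, and up to 2 genes of smallest p of a list per comparison could be named. Figures were drawn with matplotlib 3.10.9. The alternatives varied the pseudocount, the filter, the scaling (median-of-ratios, quantile, no mitochondrially encoded genes), the model (replicate block, library weights, constant prior variance, only the groups compared), the X and Y rows (kept separate) and the libraries (each left out in turn).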

Additional observations from a re-analysis of the deposited data

How the results depend on the processing

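No member passed the adjusted threshold in any comparison, nor in the F test where it was run, under any alternative, and the 15 results of smallest p kept their sign throughout. The count over all genes moved more, and the cause was not tested. Without a filter on low values it was 9 for TIS sEV against No sEV and 7 for Cont sEV against No sEV, and with a filter at 5 TPM it was 1 for Cont sEV against No sEV. With a constant prior variance it was 2 for TIS sEV against Cont sEV and 0 for TIS sEV against No sEV, and with only the groups compared 3 and 2. With 1 library left out it ran from 2 to 13 for TIS sEV against Cont sEV, 1 to 2 for TIS sEV against No sEV and 0 to 1 for Cont sEV against No sEV. The first of these fell by over 1.5 times without any of the 3 TIS sEV libraries (3, 4 and 4), without Cont sEV replicate 2 (2) or 3 (3), or without No sEV replicate 1 (8). The second was 2 without TIS sEV replicate 2 or Cont sEV replicate 2, and the third 1 without Cont sEV replicate 2.

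Fold changes near 0 changed sign, none of them past the threshold. On the log2 scale, median-of-ratios rescaling gave -0.00207 for CD9 and -0.0182 for SDC4 in TIS sEV against Cont sEV, -0.0326 for TSG101 in TIS sEV against No sEV, and -0.00426 for CD82, -0.00336 for HGS, -0.00134 for SDCBP and -0.0081 for TSG101 in Cont sEV against No sEV. Quantile normalization gave -0.0108 for SDC4 in TIS sEV against Cont sEV, -0.00362 for CAV2 and -0.0209 for TSG101 in TIS sEV against No sEV, and 0.00838 for CD63 in Cont sEV against No sEV. Leaving out mitochondrially encoded genes gave -0.00852 for SDC4 in TIS sEV against Cont sEV and -0.00598 for TSG101 in TIS sEV against No sEV. Library weights gave 0.00772 for CD63 and 0.00587 for TSG101 in TIS sEV against Cont sEV, and -0.00166 for TSG101 in Cont sEV against No sEV.

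With 1 library left out, fold changes of TIS sEV against Cont sEV ran from -0.0257 to 0.0174 for CD63, -0.0575 to 0.0128 for CD81, -0.0178 to 0.0464 for CD9, -0.106 to 0.013 for CHMP4C, -0.0456 to 0.0302 for PDCD6IP, -0.00965 to 0.0149 for SDC4, -0.0287 to 0.0198 for STAM and -0.0625 to 0.0438 for TSG101. Those of TIS sEV against No sEV ran from -0.0357 to 0.0044 for CD63, -0.0505 to 0.0314 for PDCD6IP, -0.0936 to 0.0178 for RAB27B, -0.0226 to 0.137 for SDC1, -0.032 to 0.00377 for SDCBP and -0.0591 to 0.0313 for TSG101. Those of Cont sEV against No sEV ran from -0.0294 to 0.00918 for CD63, -0.0626 to 0.0123 for CD81, -0.0387 to 0.0602 for CD82, -0.0436 to 0.018 for CHMP4C, -0.0483 to 0.000181 for CLTC, -0.0128 to 0.0362 for HGS, -0.0482 to 0.0429 for PDCD6IP, -0.117 to 0.0523 for SDC1, -0.0437 to 0.0354 for TSG101 and -0.0258 to 0.00204 for VPS25.

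No sign of pairing by replicate number was seen. Deviations from the group means correlated at -0.07 to 0.055 between libraries of the same number and at -0.0961 to 0.109 between others. Such values cannot exclude that libraries of the same number were prepared together. With the number as a block, 0 members passed. Over all genes 17, 1 and 0 passed in the 3 comparisons, beside 13, 1 and 0 without the block. Because TPM keep no depth, the part of the spread due to counting is unknown, which weighs most on SMPD3, CHMP4C, VPS36 and RAB27B.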
